A study of Homo sapiens with 12 samples.

Results

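The regions described here are peaks of N4-acetylcytidine (ac4C) in the protein-coding part of mRNAs that hold at least 1 copy of the repeated motif CXX. They are the rows of the authors' deposited table of differential peaks whose class is CDS and whose count of motif sites is 1 or more. This gave 908 of the 2364 peaks in the table, in 795 genes, of which 790 were annotated as protein-coding. Of the other peaks, 498 lay in coding sequence and had no site, 503 lay in 3' untranslated regions, 365 in exons annotated as other and 88 in 5' untranslated regions.

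The series holds 12 libraries made from the epithelial cell line DLD1, established from a human colorectal cancer, at passage 5. All cells carried a short hairpin RNA, either the control hairpin shNC or a hairpin labelled shNAT10, against the gene NAT10. Total RNA (100 µg) was broken into pieces of 100 to 200 nt, incubated with an antibody against ac4C for 3 h and with beads for another 2 h, and sequenced as 150 bp read pairs beside input RNA that skipped the antibody. There are 4 groups, an input and an immunoprecipitate for either hairpin, each with 3 replicates. No source used here says whether these were separate cultures, so p-values measure only the spread between libraries. Gene levels were analysed in the 6 input libraries. Levels in single immunoprecipitates were not analysed here, so a peak has the authors' values only, with no replicate spread.

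Cells make ac4C by acetylating the base cytidine, and NAT10 is the acetyltransferase known to do so on ribosomal RNA, transfer RNA and mRNA. Sites mapped in RNA often sit where a cytidine is followed by 2 bases of any kind and then another cytidine, hence the name CXX for runs of that spacing. In mRNA the mark has been described within coding sequence, where it has been linked to decoding at codons that end in cytidine and to the life span of the transcript.

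The motif that the authors searched spans 12 nt and is written here as CNNCNNCNNCNN, a C at 4 places with any 2 bases after each. It is a loose pattern: 74.9% of 35116 RefSeq promoter windows of 300 bases held it on the strand of the gene, and 90.3% on either strand. The RefSeq promoter windows (GRCh38.p14) were the sequence at hand, and 10 of the 908 peaks had a whole site inside one. The stretches of 5 of these peaks are printed 5' to 3' on the strand of the transcript, with each motif site in capitals, to show how sites repeat within a peak. They were chosen after their values were seen, for the number of sites and the length of the stretch. NUP188 (chr9:129006514-129006648, plus strand) encodes a scaffold nucleoporin, and AUP1 (chr2:74529320-74529454, minus strand) a lipid droplet and ubiquitin-pathway protein. SLC1A5 (chr19:46787464-46787543, minus strand) encodes a glutamine transporter. PCNA (chr20:5119578-5119635, minus strand) encodes the sliding clamp of DNA replication, and CCT4 (chr2:61878869-61878925, minus strand) a subunit of the chaperonin that folds actin and tubulin.
NUP188: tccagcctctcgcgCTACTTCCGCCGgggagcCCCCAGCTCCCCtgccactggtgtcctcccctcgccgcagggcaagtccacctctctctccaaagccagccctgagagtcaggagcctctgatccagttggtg
AUP1: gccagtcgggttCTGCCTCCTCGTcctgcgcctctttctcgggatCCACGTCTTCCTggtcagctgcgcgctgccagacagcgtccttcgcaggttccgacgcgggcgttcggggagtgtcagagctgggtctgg
SLC1A5: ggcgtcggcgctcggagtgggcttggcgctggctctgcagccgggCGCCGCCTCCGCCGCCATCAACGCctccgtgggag
PCNA: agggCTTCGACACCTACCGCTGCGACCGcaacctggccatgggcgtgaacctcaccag
CCT4: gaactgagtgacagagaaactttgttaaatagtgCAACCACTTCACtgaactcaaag

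The NUP188 stretch of 135 nt held both sites of its peak. Only 1 of its 3 reading frames was free of stop codons, and in that frame the 4 cytidines of both sites fell at codon position 3. In CCT4, also with 1 open frame, the 1 printed site of the 2 in its peak lay at codon position 2. The SLC1A5 and AUP1 stretches had 3 open frames and the PCNA stretch 2, so the frame of their sites could not be read from these letters alone. In SLC1A5 and in PCNA the 2 printed sites followed each other without a gap, while in NUP188 and AUP1 other bases lay between them.

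The 2 sites of PCNA, printed above, sat in a peak of 354 nt over 4 exon blocks with a deposited fold enrichment of 4.44 and a deposited log2 change of -5.49. PCNA was listed at 3.82, 67.1 and 77.0 FPKM (fragments divided by gene length and by library size) in the shNC controls and at 0, 0 and 159 in the shNAT10-labelled libraries. A gene that every dividing cell uses was thus listed at 0 in 2 libraries, so a value of 0 in these files means only that a gene is listed at 0. SLC1A5 stood at 77.5, 88.0 and 26.8 FPKM in the shNC controls and at 54.9, 68.3 and 37.1 in the shNAT10-labelled libraries, groups that overlap. NUP188 was listed at 34.0, 20.9 and 32.2 FPKM in the shNC controls and at 0.537, 3.24 and 31.1 in the shNAT10-labelled libraries, and its groups overlap too.

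Which hairpin is the numerator of the deposited log2 change is not stated in the sources used here, so the changes are given by sign only. The targeted gene did not settle the labels either. NAT10 was listed at 1.24, 3.95 and 2.89 FPKM in the shNC controls and at 0, 28.1 and 31.4 in the shNAT10-labelled libraries. The value in shNAT10 replicate 1 lies below every control library, and those in replicates 2 and 3 lie above every one. The difference was 1.48 on the log2(FPKM + 1) scale, with an exact two-sided permutation p of 0.4, where 3 against 3 libraries cannot give less than 0.1. The adjusted p of limma, a linear model fitted across all genes, was 0.754. No direction below is read as an effect of the loss of NAT10.

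The FPKM denominators recovered for the input libraries were 3284599 to 3426872 fragments in shNC and 1197889 to 1498313 in the libraries labelled shNAT10. By gene lengths fitted to the same values, a median gene with a peak had 54.5 to 103.5 fragments in shNC and 9 in each of the others. Levels of genes with a mean of at least 1 FPKM, as log2(FPKM + 1), correlated at 0.38 to 0.41 within a group and at 0.37 to 0.40 between groups. Of 20 epithelial markers, 17 were above 0 in at least 1 library, led by the keratin KRT8 at 3112 to 5866 FPKM. The cadherin CDH1 stood at 24.5 to 78.6. Several of the 17 were at 0 in some libraries, and KRT20 was above 0 only in shNC replicate 3, at 0.158 FPKM. The intestinal markers CEACAM5, CEACAM6 and GPA33 were listed at 0 in all 6 libraries. Of 13 leukocyte markers 9 were listed at 0 in all 6 libraries, of 10 endothelial and erythroid markers 6, of 9 neural markers 4 and of 15 fibroblast and muscle markers 4. The summed fibroblast and muscle markers stood at 14.6, 6.98 and 6.63 FPKM in the shNC controls and at 77.2, 29.8 and 28.0 in the shNAT10-labelled libraries, led by TAGLN at 68.9 in replicate 1 and ACTA2 at 22.0 in replicate 2. The summed epithelial markers also lay higher there, at 8313 to 8741 FPKM against 5335 to 5448. Most of that sum came from the keratins KRT8, KRT18 and KRT19, so it does not stand for the whole list. The adhesion molecule EPCAM lay lower, at 38.3 to 128 against 226 to 370, and the cadherin CDH17 was listed at 0 against 1.05 to 22.4. The part of these differences in the input comparison was not tested. In libraries of bulk RNA, fewer cells with a transcript and less RNA per cell cannot be told apart.

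Exonic length was the sum of the block sizes. Its median over the 908 peaks was 210 nt, with quartiles of 180 and 299 nt and a range of 115 to 751 nt. Coding peaks without a site had a median of 181 nt, and the peaks with a site were thus somewhat longer. The rule asks for at least 1 match, and a longer peak offers more places for one, so length is tied to membership. The difference was not tested, also because peaks are not replicates of a condition. Lengths were not spread evenly: 861 of the 908 (94.8%) lay within 1 nt of a multiple of 30, led by 152 peaks of 181 nt, 99 of 180 nt and 73 of 151 nt. The same held for 480 coding peaks without a site (96.4%). Of all coding peaks, 54.2% held a site at 100 to 150 nt, 61.1% at 151 to 180 nt and 60.1% at 181 to 210 nt. The share was 68.6% at 211 to 300 nt, 73.1% at 301 to 450 nt and 74.4% at 451 to 900 nt. Sites were thus found more often in the longer classes, where more bases can hold a match.

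The longest peaks were those of SRRM2, a protein of the spliceosome (751 nt in a single block, 4 sites), of TTC3, a ubiquitin ligase (750 nt in 3 blocks, 1 site), of the cyclin CCNY (689 nt in 8 blocks, 3 sites) and of ACTR2, a subunit of the actin-branching Arp2/3 complex (661 nt in 5 blocks, 2 sites). The shortest were AC008738.7 at 115 nt with 3 sites, the transcription factor CEBPB at 119 nt with 1, and then 17 peaks of 120 nt, among them ISG20L2 with 1 site and B4GALT2 with 3. After CCNY, 5 peaks had 6 blocks each, among them those of GBF1, EIF5B and CTPS1. Median length was 181 nt in peaks of 1 or 2 blocks, 269 nt with 3 and 330 nt with 4, although the longest peak had a single block. Across the 908 peaks, Spearman's rho of length with the number of sites was 0.17, and with sites per 1000 nt -0.34, as a description.

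Most peaks crossed an exon junction. Of the 908, 602 (66.3%, exact 95% binomial interval 63.1 to 69.4) were spliced, against 351 of 498 coding peaks without a site (70.5%, 66.3 to 74.5). A single block was found in 306 peaks, 2 blocks in 307, 3 in 193, 4 in 73, 5 in 23, 6 in 5 and 8 in 1. Single-block peaks had a median length of 181 nt. The genes of single-block peaks included 12 histone genes, of which the replication-dependent ones lack introns, and also the intronless genes JUN and CEBPB. The 12 histone peaks had a median length of 178.5 nt.

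The 908 peaks held 1988 sites. A single site was found in 371 peaks, 2 in 259, 3 in 154, 4 in 50, 5 in 35, 6 in 18, 7 in 16, 8 in 4 and 10 in 1. Density ran from 1.33 to 50 sites per 1000 nt of exon, with a median of 7.78, and all sites over all exonic length gave 9.06. Pooled in that way, site-bearing peaks in 3' untranslated regions had 7.42 and site-bearing other exons 8.87. Single-block peaks were denser, at a median of 11.05 against 6.67 in spliced peaks. The rule itself used the count of sites, so these values describe the members and test nothing.

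**Figure D1:**
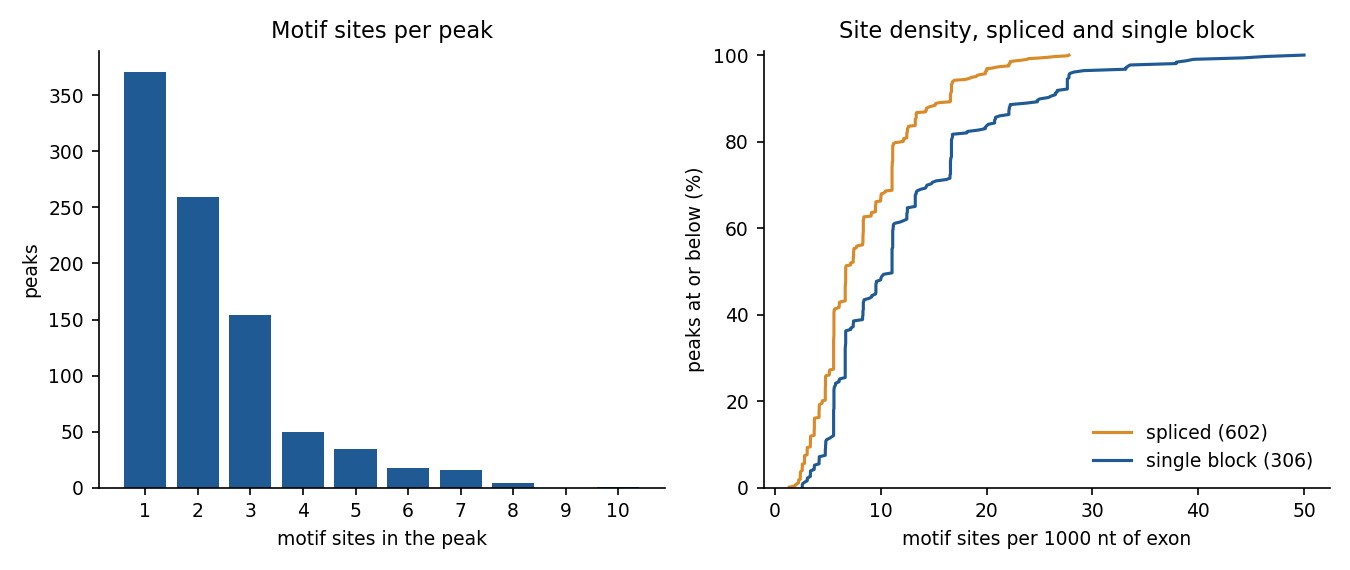
Left, the number of coding-sequence peaks (vertical axis) by the count of motif sites in the peak (horizontal axis), for the 908 peaks with a site. Right, the cumulative share of peaks in percent at or below each density in sites per 1000 nt of exon, for 602 spliced and 306 single-block peaks; the single-block curve lies to the right, with medians of 11.05 and 6.67.

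The peak with most sites was that of LRRC8A, a subunit of volume-regulated anion channels, with 10 sites in 359 nt (fold 2.13, log2 change 2.58). Peaks with 8 sites lay in JUN, an AP-1 transcription factor (300 nt, log2 change -4.31), in ATXN1, the ataxin of spinocerebellar ataxia (181 nt, -3.71), and in SRCAP, an ATPase that exchanges histone H2A.Z (211 nt, -4.28). The fourth such peak, of AC106886.5 (-4.21), starts 2 nt from the SRCAP peak, so both entries describe the same region. HCFC1, a cofactor of transcription, had 7 sites in 180 nt, the mitochondrial nuclease ENDOG 7 in 177 nt, and the motor protein MYO10 7 in 510 nt. By density the first were PRSS8, a membrane-bound serine protease (6 sites in 120 nt, 50 per 1000 nt), GTF3C1, a subunit of the RNA polymerase III factor TFIIIC (7 sites in 151 nt, 46.4), and ATXN1 (44.2). All of these sites lay in single blocks.

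For 407 of the 676 sites in spliced peaks on the minus strand, the deposited position lay outside the exons of the peak. In the other classes of peak (plus or minus strand, spliced or not), 0 of 336, 544 and 432 did. The positions were therefore laid through the exon blocks in the order of the transcript. In the RefSeq windows, 19 of 19 of the re-placed sites had a C at all 4 places of the motif, against 11 of 14 at the positions as deposited. Site positions below are those placed through the blocks.

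Sites were spread along the peaks rather than gathered at an end. With each peak cut into 5 equal parts from the 5' to the 3' end, these held 18.5%, 20.8%, 20.5%, 21.3% and 19.0% of the sites. An exon junction ran through 29 sites (1.46%). Neighbouring sites were at least 12 nt apart, which is the length of the motif, so no 2 sites overlapped. A search that skips overlapping matches would give this by itself, so it is not read as a property of the sites. The median distance was 39 nt.

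Neighbouring sites often stood a whole number of codons apart. Of 1080 neighbouring pairs in 537 peaks with more than 1 site, 597 (55.3%, exact 95% interval 52.3 to 58.3, counting error only, since pairs within a peak share their sequence) were a multiple of 3 nt apart, and remainders of 1 and 2 made up 22.9% and 21.9%. In 3' untranslated regions the share was 88 of 240 pairs (36.7%, 30.6 to 43.1), and in other exons 114 of 247 (46.2%, 39.8 to 52.6). Without the 96 pairs that were exactly 12 nt apart, back to back as in SLC1A5, the shares were 50.9% in coding sequence, 33.3% in 3' untranslated regions and 42.2% in other exons. Pairs on different exon blocks, joined by splicing, stood at 48.3% of 211, against 57.0% of 869 pairs within a block. At distances over 60 nt the share in coding sequence was 44.3%, against 38.4% in 3' untranslated regions. Peaks of negative and positive change were close in this respect, at 54.8% and 56.5%. The differences between classes were not tested.

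**Figure D2:**
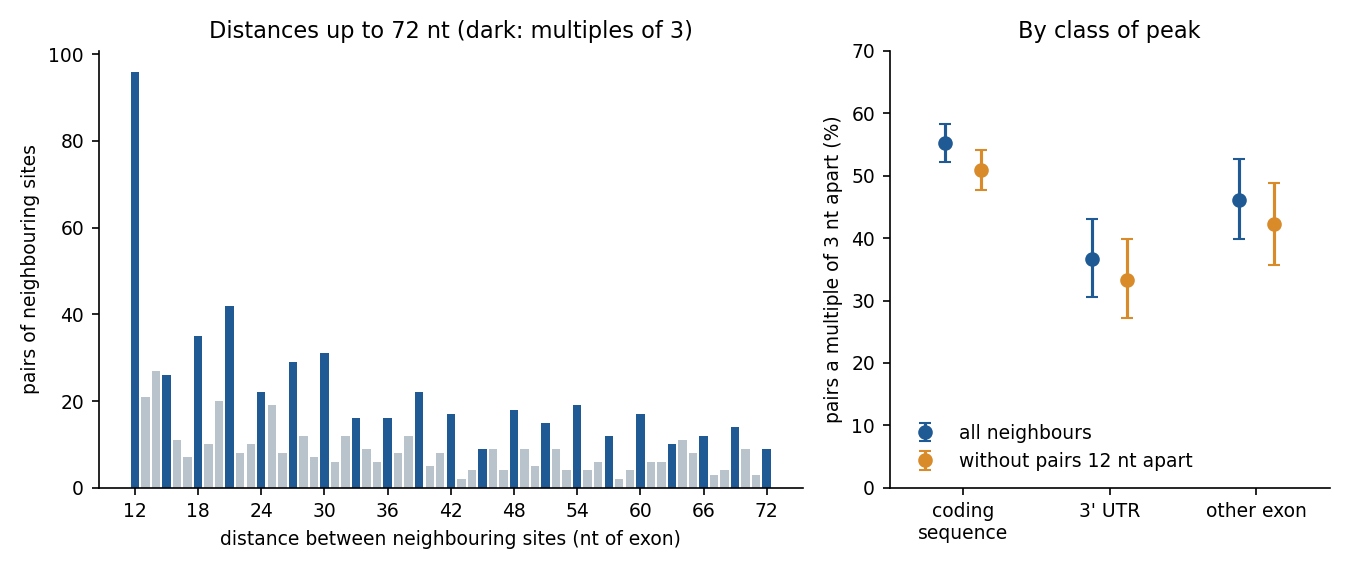
Left, the number of neighbouring site pairs in the 908 coding-sequence peaks (vertical axis) at each distance in nt of exon from 12 to 72 (horizontal axis), with multiples of 3 in dark; 96 pairs lie at exactly 12 nt. Right, the percent of pairs a multiple of 3 nt apart by class of peak, with all pairs (blue) and without pairs 12 nt apart (orange); points are shares and bars exact 95% binomial intervals, and coding sequence is highest at 55.3% and 50.9%.

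The deposited log2 change was negative in 619 of the 908 peaks (68.2%, exact 95% interval 65.0 to 71.2) and positive in 289. Among coding peaks without a site, 268 of 498 were negative (53.8%, 49.3 to 58.3). Peaks in 3' untranslated regions showed the same order, with 66.1% negative where a site was present and 50% where none was, and so did other exons, with 66.2% and 55.0%. The higher share of negative peaks was therefore found with sites in each of these classes and not in coding sequence alone. Within coding sequence, the share was 64.4% with 1 site, 68.3% with 2, 76.6% with 3 and 68.5% with 4 or more. Just inside the rule, at 1 site, the median length was 181 nt and the median fold 9.86, and just outside it, with no site, 181 nt and 10.95.

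Peaks over 210 nt were more often negative than those of 151 to 210 nt in both groups, and within each length class the peaks with a site had the higher share. At 100 to 150 nt it was 70.8% with a site and 49.1% without, at 181 to 210 nt 56.3% and 47.7%, at 211 to 300 nt 78.5% and 63.2%, and at 301 to 450 nt 70.5% and 62.3%. The intervals of the groups overlap in several classes. Negative peaks had a median length of 239 nt and positive peaks 181 nt. These shares are of the authors' differential calls, whose deposited set bears the name shNC. In which libraries the peaks were called is not stated in the sources used here. The part that depth or peak length plays in the sign was not tested.

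**Figure D3:**
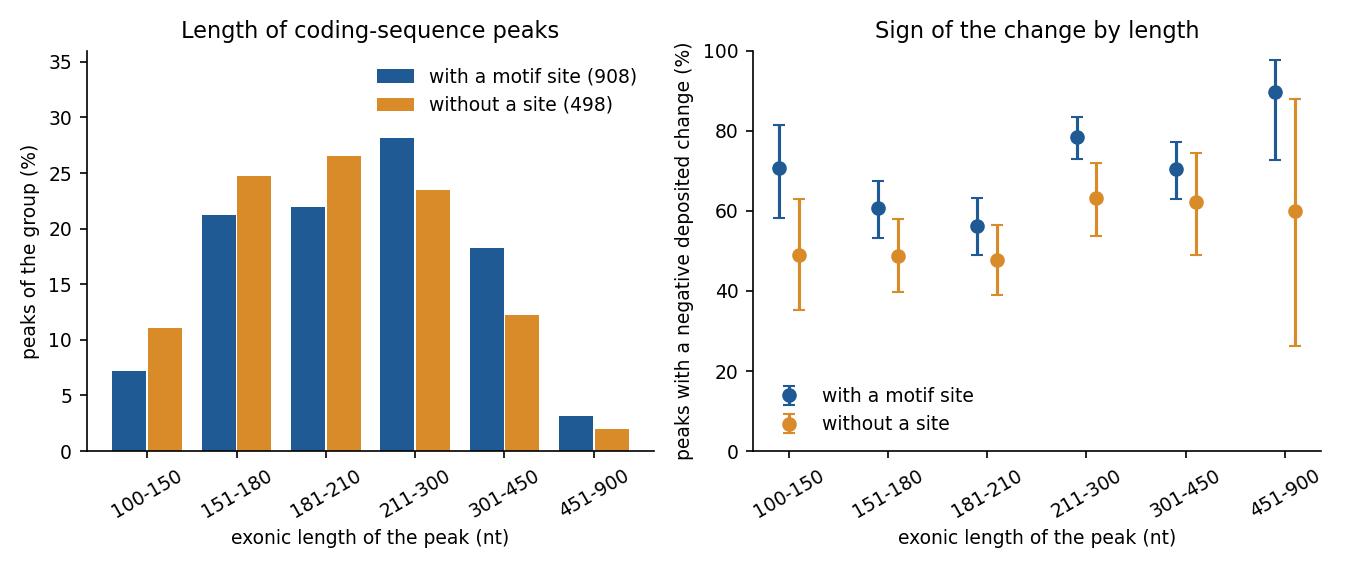
Left, the percent of each group of coding-sequence peaks (vertical axis) by class of exonic length in nt, for 908 peaks with a site and 498 without. Right, the percent of peaks in each length class with a negative deposited log2 change, with exact 95% binomial intervals as bars; at 211 to 300 nt the shares are 78.5% with a site and 63.2% without.

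Changes were large in either direction, but the authors deposited only peaks that they listed as differential. Large changes and low false discovery rates are therefore tied to that choice and are not read as a property of these peaks. The median absolute change was 4.64 here and 4.81 over all deposited peaks. The median was -4.52 among negative and 5.54 among positive peaks, 20 of 908 peaks changed by less than 1, and 753 (82.9%) had a deposited false discovery rate under 0.01, against 80.5% of all peaks in the table. The most negative peaks were those of PNISR, a splicing-associated protein (-10.2), PKD1, polycystin of the kidney (-9.26), the phospholipase PLCD3 (-8.57), EXOC7 of the exocyst (-8.48), FAM213B (-8.15) and the oxysterol receptor NR1H3 (-8.04). The most positive were AUNIP, a partner of Aurora A (12.9), the protease FURIN (11.3), the kinase DYRK2 (11.1), WDR45B of autophagy (11), POLR1A, the large subunit of RNA polymerase I (10.9) and the histone variant gene H3F3A (10.6). PNISR itself was listed at 3.45, 7.45 and 15.3 FPKM in the shNC controls and at 0, 0 and 0.307 in the shNAT10-labelled libraries. FURIN was listed at 0 FPKM in all 6 input libraries, and AUNIP at 1.35, 31.2 and 0 in shNC and at 0 in the 3 libraries labelled shNAT10. In these 3 genes the input values were low or uneven between libraries.

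The deposited fold enrichment had a median of 9.16 (quartiles 4.095 and 24.2, range 1.16 to 1300), against 10.95 in coding peaks without a site and 15.8 in 3' untranslated regions. It was lower in negative than in positive peaks, at medians of 7.74 and 14. The largest values were those of CD55, an inhibitor of complement (1300), NR1H3 (1210), DCAF5, a substrate receptor of a ubiquitin ligase (742), the kinase CDC42BPG (698), the matrix protein THBS2 (595), H3F3A (536), the zinc finger ZBTB38 (459) and the nucleotide hydrolase DNPH1 (451). CD55 was listed at 0, 0 and 1.57 FPKM in the shNC controls and at 3.10, 0.120 and 33.6 in the shNAT10-labelled libraries. THBS2 was listed at 0 in all 6. DNPH1 was listed at 1.42 FPKM in shNC replicate 1 and at 0 in the other 5 libraries.

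Fold and input level ran in opposite directions. For 94 peaks in genes with a mean of above 0 to 1 FPKM, the median fold was 16.8, for 385 peaks at 1 to 10 FPKM 13.4, for 359 peaks at 10 to 100 FPKM 5.68, and for 24 peaks above 100 FPKM 2.41. A further 46 peaks, with a median fold of 8.21, belonged to genes at 0 in every input library. Spearman's rho of fold with mean input FPKM was -0.34 over the 908 peaks, a description, since input can enter both values and peaks of a gene share its level. The share of negative peaks was 63.8%, 66.2%, 71.6% and 79.2% in the 4 classes above 0, and site density moved little, with medians of 7.84, 7.69, 8.26 and 6.33 per 1000 nt.

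**Figure D4:**
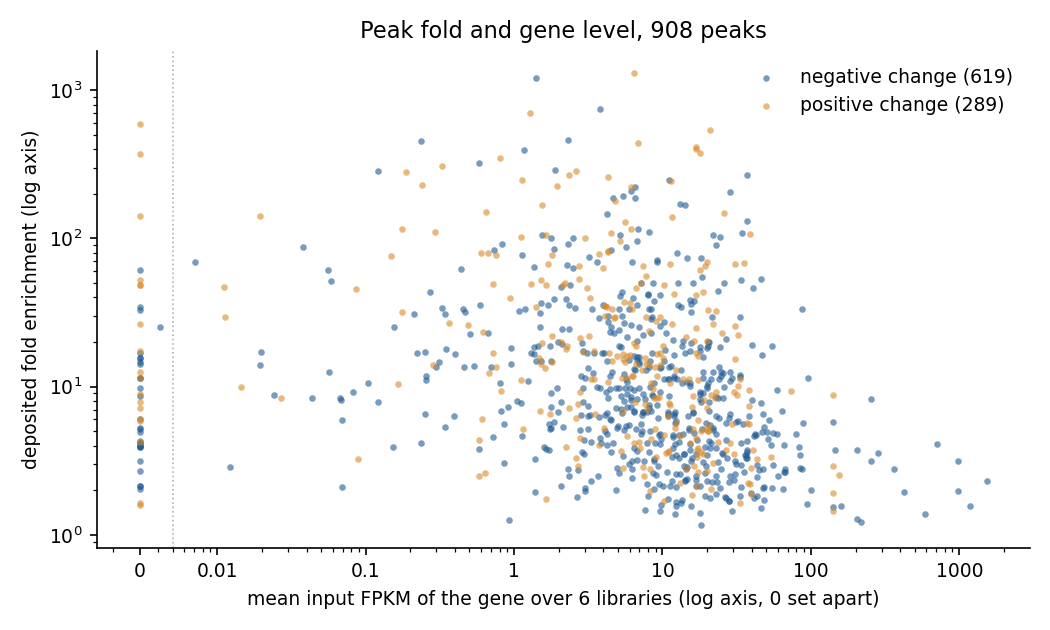
Deposited fold enrichment of each of the 908 peaks (vertical log axis) against the mean FPKM of its gene over the 6 input libraries (horizontal log axis, with genes at 0 set apart on the left), for 619 negative (blue) and 289 positive (orange) peaks. The median fold falls from 16.8 at up to 1 FPKM to 2.41 above 100 FPKM.

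Most genes had a single such peak. Of the 795 genes, 703 had 1, 76 had 2 and 16 had 3 or more, and 37 had peaks of both signs. The exons of 44 peaks overlapped another of the 908, which left 886 regions that do not overlap. FAT1, a giant atypical cadherin, had 6 peaks over 1833 nt with 9 sites, of which 2 were negative (-4.27 and -4.20) and 4 positive (0.83, 0.66, 1.16 and 2.60). Its input level stood at 164, 125 and 158 FPKM in the shNC controls and at 160, 54.7 and 180 in the shNAT10-labelled libraries. DYNC1H1, the heavy chain of cytoplasmic dynein, had 4 peaks with 8 sites, at -4.23, -3.94, 2.68 and -1.38. KIAA0100 had 4, all negative, from -4.61 to -2.02.

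In 5 genes all 3 or more peaks were negative: KIAA0100, HJURP (the loading factor of the centromeric histone CENP-A), ITPR3 (a calcium release channel), MYH9 (non-muscle myosin) and SPTBN1 (a spectrin). In MACF1, which links microtubules to actin, all 3 were positive, at 6.61, 1.02 and 4.39. ADAR (which edits adenosine to inosine), MMS19, MYO9B, SEC16A, SNRNP200, TJP1, AC106886.5 and ZFHX3 had 3 peaks each of mixed sign. The transcription factor ZFHX3 was the richest in sites, with 19 over 873 nt in peaks of 3.77, 1.83 and -4.74. Different peaks of a gene could thus carry opposite signs.

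Histone genes formed a compact group within these peaks. The 12 core and linker histone genes had 12 peaks with 27 sites, a median density of 10.0 per 1000 nt and a median fold of 2.14, and 11 of the 12 changes were negative, with a median of -2.31. All 4 histone peaks without a site were negative as well. HIST1H2AB held 5 sites in 309 nt (log2 change -4.56) and HIST1H3I 5 in 177 nt (-1.99), while the linker histone gene HIST1H1B held 1 in 385 nt (-1.33). The exception in sign was H3F3A (10.6). Histone genes of a class are near-identical copies, so the share of each in these values is uncertain.

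Among the lists of genes with a shared role, chromatin regulators and giant scaffold proteins had the highest shares of genes with such a peak. Of all 11442 protein-coding genes above 0 in a library, 6.58% had one. The lists were chosen with earlier results of these data known, so their shares are a description and test nothing. No background was taken for genes with any deposited peak, so a high share may not be particular to coding peaks with a site. The signs below stand beside the 68.2% negative of all 908 peaks. Of 54 chromatin regulators in the gene table, 26 had any deposited peak and 19 a coding peak with a site, with 18 negative and 7 positive peaks. TRRAP, a scaffold of histone acetyltransferase complexes, had peaks of both signs (-5.23 and 5.41), and the acetyltransferase CREBBP and the remodeller CHD8 had -2.61 and -5.78. Of 30 giant scaffold and cytoskeletal linker genes, 10 carried them, with 13 negative and 4 positive peaks, among them FLNA (-4.62 and -3) and FLNC (-7.45), which crosslink actin. Of 26 motor and microtubule genes 5 did (7 negative, 2 positive), with DCTN1 of dynactin at 6.75 and the calcium sensor STIM1 at -4.04. Of 38 adhesion and junction genes 9 did (12 negative, 6 positive), with the laminin chains LAMA5 at -6.54 and LAMB1 at 7.94, and with the junction scaffold TJP1 at -4.82, 3.82 and -5.29. The table is one of long and short genes alike, and gene length was not matched in these counts.

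Lists of RNA and protein handling varied. Of 50 splicing and RNA-binding genes 11 carried such a peak (11 negative, 4 positive), of 41 nuclear pore and transport receptor genes 10 (6 and 5), of 46 trafficking genes 10 (9 and 6), of 49 ubiquitin and proteasome genes 9 (5 and 5), and of 40 chaperone genes 8 (6 and 2). RNA helicases, with 2 of 28 (7.14%), and genes of ribosome biogenesis, with 3 of 36 (8.33%), lay near the background. That background was the 6.58% of all protein-coding genes above 0. HNRNPF, a G-tract binding splicing regulator, had 3 sites and a change of 0.74, and IGF2BP2, an mRNA-binding protein, 1 site and -5.33. RANBP2, the largest nucleoporin of the cytoplasmic filaments, had 2 sites and 10.0, and RANGAP1, the activator of the Ran GTPase, 7 sites in 449 nt and 3.13. BAG6, a chaperone of membrane protein precursors, had 6 sites in 181 nt and 7.68, and P4HB, protein disulphide isomerase, 6 in 510 nt and -1.78. The deubiquitinase USP9X had 6 sites in 451 nt and -5.92. GOLGA3 had 2 peaks, at 5.03 and 5.02, and the coat protein SEC23A 1, at 2.30.

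Genes of division and replication had 50 and 37 members in the table, of which 11 and 6 carried such a peak. The division genes had 8 negative and 6 positive peaks, and the peaks of those named here by fold were positive. CENPF, a kinetochore protein, had the largest fold of these at 375 (log2 change 4.73). MKI67, the antigen Ki-67, had 2 positive peaks (5.81 and 1.66) and the condensin subunit NCAPH was positive at 3.74. Replication genes had 6 negative peaks of 7, beside 68.2% over all 908, with PCNA at -5.49, the polymerase subunit POLD1 at -5.38 and -4.86, and TYMS, thymidylate synthase, at -4.89. The repair proteins DDB1 and PARP1 had 3 peaks, at -6.98, -4.88 and 2.58. Of 46 genes of carbon and lipid metabolism 7 did (7 negative, 1 positive), with CTPS1 at -2.03. Of 44 signalling genes 5 did, with the receptors EGFR at -5.37 and ERBB3 at -4.34 and the lipid kinase PIK3C2A at 8.07. With 1 to 25 peaks a list, these signs are counts only.

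Of 78 cytosolic ribosomal protein genes 17 had any deposited peak and only RPL32 one of these, with 1 site in 181 nt and a change of -0.33. Of 34 genes on the list of translation factors 3 did, EIF2S3 at -3.42, EIF5B at 5.45 and GSPT1 at -3.71. Of 22 aminoacyl-tRNA synthetases 5 did, among them AARS at 5.39, IARS2 at -4.43 and TARS at -5.79 and -2.66. Nucleolar genes gave MYBBP1A (-4.76 and -6.32), RRP1B (1.43) and POLR1A, RNA helicases DHX30 (4.96) and DHX38 (-4.27), and the transcription machinery CTR9 (6.64), MED13 (-5.12) and SUPT6H (-4.81). None of 23 ferroptosis and iron genes carried such a peak, and of 20 epithelial markers only the claudin CLDN3 (-4.34) did. No leukocyte, endothelial, erythroid or neural marker had any deposited peak.

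The input level of the genes was modest. Over the 795 genes, the median stood at 4.60, 3.15 and 3.16 FPKM in the shNC controls and at 1.02, 1.13 and 1.19 in the shNAT10-labelled libraries, which were also the shallower libraries. Between 19.7% and 24.8% of the genes were listed at 0 in an shNC library and between 27.2% and 35.5% in a library labelled shNAT10. All 6 libraries were above 0 for 323 genes, and 41 were at 0 in every one. The part that depth plays in this was not tested. The highest levels were those of HIST1H2AJ, the cytoplasmic actin ACTG1, HIST1H2AB, HIST1H1B, HIST1H2AE, HIST1H3I, HIST1H2AK, RPL32, HIST2H3D and the tubulin TUBB. All 11 of their peaks were negative, beside 68.2% of all 908 peaks and 79.2% of the 24 peaks in genes above 100 FPKM. Most of these genes are histone genes, whose copies within a class are near-identical, so their peaks are not independent. ACTG1 stood at 1324, 917 and 942 FPKM in the shNC controls and at 1237, 1034 and 1603 in the shNAT10-labelled libraries, with a peak of 3 sites, fold 1.56 and log2 change -1.86. RPL32 stood at 330, 310 and 329 and at 561, 215 and 449.

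Input levels of these genes were then compared between hairpins, with limma on log2(FPKM + 1) over all 10517 genes with a mean of at least 1 FPKM. Of the 795 genes 665 passed this filter. None of the 665 had a limma p under 0.05 after Benjamini-Hochberg adjustment, where 20 of all genes tested did (0.19%; 1 without any single shNC library, 12 without shNAT10 replicate 1 and 34 without shNAT10 replicate 2). An unadjusted p under 0.05 was reached by 11 of the 665 (1.65%, 5 higher and 6 lower in the libraries labelled shNAT10), against 3.7% of all genes (1.38% higher and 2.32% lower). The groups did not overlap in 68 (10.2%, 16 higher and 52 lower), against 9.61% of all genes (2.89% higher and 6.72% lower), so both shares lay near or under the background. Almost all genes with a peak are protein-coding, and of the 8140 protein-coding genes tested 0 passed the adjusted limma p, 2.19% had an unadjusted p under 0.05 and 10.2% did not overlap. The median difference was -0.34 for the 665 and -0.49 for all genes tested, and after quantile normalization these were 0.22 and -0.08, so the sign for the 665 turned with the scaling. The median was -0.31 for genes whose peaks were all negative and -0.42 for those whose peaks were all positive, each without a test.

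The smallest adjusted p among these genes was 0.476, for HIST1H2AJ. It stood at 710, 846 and 891 FPKM in the shNC controls and at 3676, 1262 and 1890 in the shNAT10-labelled libraries, a difference of 1.34 (SE 0.44). All 3 libraries labelled shNAT10 were above all 3 controls. VPS18, a tethering factor of the endosome, was listed at 0.365, 0.0752 and 0.288 FPKM in the shNC controls and at 53.9, 20.3 and 10.5 in the shNAT10-labelled libraries. AHCY, which hydrolyses S-adenosylhomocysteine, was at 15.7, 7.66 and 3.82 and at 104, 47.3 and 144. DNMT1, the maintenance DNA methyltransferase, was at 2.93, 3.61 and 5.33 and at 22.6, 26.2 and 48.4. None of these differences passed, and the adjusted limma p was 0.754 for each of VPS18, AHCY and DNMT1. PLOD3, BCR, MED24, RNPEPL1, TNIP1 and RANBP2 also lay higher without overlap.

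In the other direction, TFB2M, a factor of mitochondrial transcription, was listed at 19.8, 29.2 and 36.2 FPKM in the shNC controls and at 0, 0 and 0.452 in the shNAT10-labelled libraries. ZMIZ1, a co-regulator of transcription, was at 12.3, 11.02 and 9.59 in shNC and listed at 0 in the other 3. EPHA2, an ephrin receptor, was at 18.3, 10.2 and 37.7 and at 1.04, 2.73 and 0.201. HEXDC, a hexosaminidase, was at 18.5, 26.9 and 32.7 and at 0, 0.161 and 2.01. Control levels of these genes exceeded every library labelled shNAT10, but the adjusted limma p was 0.754 for each of the 4. ZNF385A, CBR1, HPS6, SLC44A2, H1FX and ACOT7 likewise lay lower without overlap. These genes were picked by p among those without overlap, so their separation is a description.

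**Figure D5:**
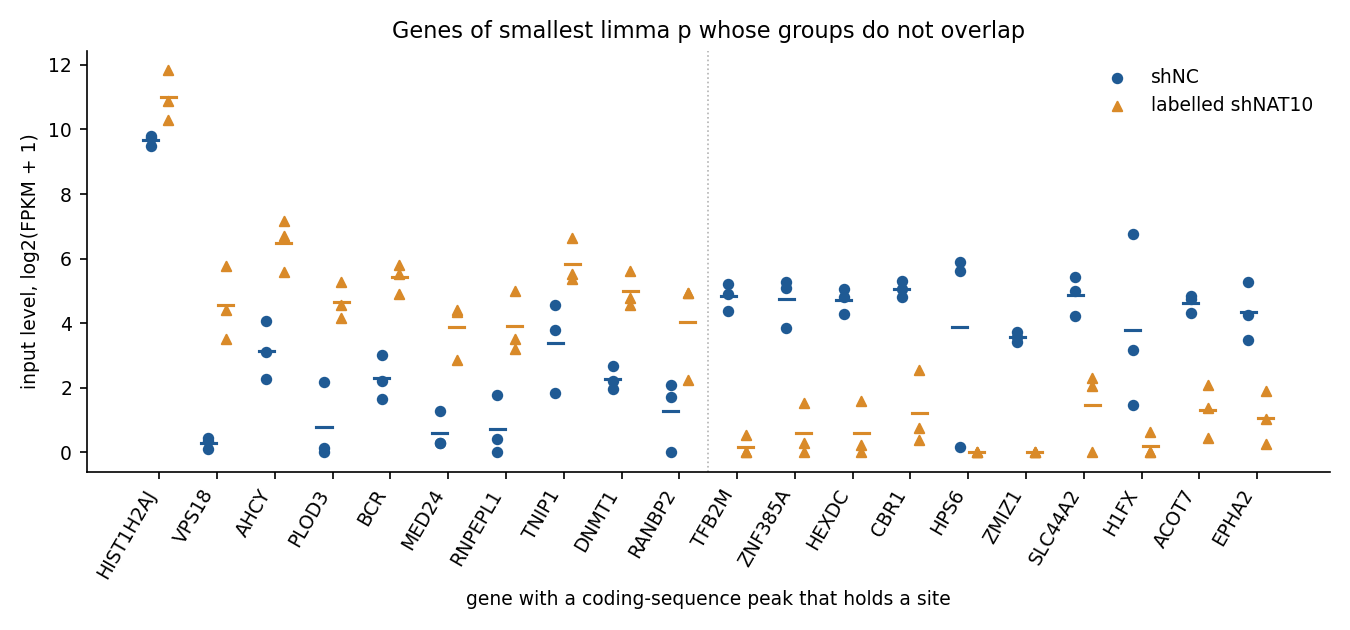
Input level of 20 genes with a site-bearing coding peak, as log2(FPKM + 1) on the vertical axis, for 3 shNC libraries (circles) and 3 libraries labelled shNAT10 (triangles), with group means as short lines. The 10 genes on each side of the dotted line were chosen as those of smallest limma p whose groups do not overlap, and none passed after adjustment.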

How the data were processed

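Members and gene lists were chosen with earlier results of these data known. The deposited gene table holds FPKM values for 6 input libraries; 0 per-sample columns stayed unmapped, and columns named sh were taken as shNAT10 inputs by elimination. The deposited peak table gives, per the file headers, a fold (ratio) per peak, a p-value of the peak call, its log10 forms (treated as scores) and a log2 fold change of the differential test. Per the submitters' processing notes, cutadapt 2.5, HISAT2 2.1.0 and HOMER 4.10.4 were used, with the builds GRCh38 and GRCm38; aligner settings, counter, annotation, peak caller, pooling of replicates and the numerator of the change are not given in the sources used here. Coordinates were read as GRCh38, since 876 of 884 members with a RefSeq gene (99.1%) lay within it, and are printed from 1 with both ends included. Promoter windows are those of RefSeq, from 250 bases before to 50 after a gene's start.

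Exonic length is the sum of block sizes. A gene entered the input comparison where its mean over the 6 libraries reached 1 FPKM. Values were taken as log2(FPKM + 1) and fitted in R 4.3.3 by limma 3.58.1, using lmFit and trended eBayes, with Benjamini-Hochberg adjustment over all genes tested. The fit was first run on simulated data with very large shifts placed in genes of higher level. Such a run bears on the code and not on the power for smaller changes or for low genes. A fold on this scale understates the change of low genes. Library denominators were recovered from the FPKM of 13 mitochondrial mRNAs (12 in shNAT10 replicate 2) and their RefSeq lengths. For other genes the shortest length that made all fragments whole within 0.001 was searched for. Such a length was found for 751 of 754 genes with a member peak above 0 in any library. Since the lengths were fitted, this is no independent check, and a fragment count can lie below the true one. PCR copies were not marked, so intervals (exact Clopper-Pearson, 95%) cover counting error only. Libraries of the same replicate number were not paired, as their departures from the group mean correlated at 0.00, -0.02 and 0.01. Named were the peaks with most sites, largest fold, extreme changes, lengths, densities and blocks, genes with 3 or more peaks, the 10 most abundant, up to 10 per direction by limma p without overlap of groups, and up to 3 per list by fold. Genes and peaks outside this rule (the sequences, the histone group) were chosen after their values were seen. A gene and a sequence among these are not reported here.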

Additional observations from a re-analysis of the deposited data

How the results depend on the processing

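No gene with a site-bearing coding peak passed limma's adjusted p under any of the alternatives tried. Over all genes, 20 passed, and 1 to 34 did when a library was left out. The count over all genes was 7 with a pseudocount of 0.01 FPKM, 10 at a mean FPKM of at least 5, and 0 with no filter beyond a value above 0 (340 at an unadjusted limma p under 0.05). It was also 0 without shNAT10 replicates 2 and 3, a setting added after seeing the data (1139 at an unadjusted p under 0.05). That setting leaves 1 library in its arm, assumed to vary like the shNC libraries, so its p-values show nothing about stability. The median difference of the genes with a peak, -0.34, was -0.53 with a pseudocount of 0.1 FPKM, -0.70 with 0.01, -0.11 at a mean of at least 5 FPKM, -0.62 on the TPM scale and -0.66 without shNAT10 replicates 2 and 3. It was 0.22 after quantile normalization, where the median of all genes tested was -0.08. It stayed at -0.40 to -0.24 with a single library left out. NAT10, at 1.48, turned to -0.23 with a pseudocount of 0.01 FPKM and to -1.81 without shNAT10 replicates 2 and 3, and was 0.62 to 3.13 with a single library left out. With the replicate block, which pairs libraries by number, 21 genes over all passed and the NAT10 difference was 1.48; no call on a gene with a peak changed. The 20 named input genes kept their direction in all 300 refits, the setting with 1 library included.

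Median length was 239 nt at 2 or more sites and 181 nt in single-block peaks, and the spliced share 62.6% at 2 or more sites. Median density was 11.1 per 1000 nt at 2 or more sites and 11.05 in single-block peaks. Median fold was 10.5 with 1 peak per gene and 8.09 in single-block peaks. The share of negative peaks stayed at 66.3% to 70.8% over its 5 alternatives. The share of pairs a multiple of 3 nt apart was 51.6% for the first pair of each peak and 50.9% without pairs 12 nt apart (chosen after seeing the data). Causes were not tested. A median of 9 fragments per gene in the libraries labelled shNAT10 limits what the input comparison can show.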
